A study of Mus musculus with 3 samples.

Results

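The transcripts of 7 transcription factors that build the heart, Gata4, Gata5, Gata6, Nkx2-5, Hand1, Hand2 and Isl1, were followed in mouse heart tubes. They were taken by symbol from the 23337 genes counted, and all 7 were present and passed the filter on low counts. RNA was measured by bulk RNA-seq in 2 Sox7-null libraries and 1 wild-type library, all from heart tubes at embryonic day 9.5, when the tube is looping. The labels give no strain, no description of the null allele and no statement of whether a tube was 1 embryo or a pool. The study asks which transcripts of the developing heart differ when Sox7, which encodes a transcription factor of endothelium and endocardium, is absent.

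GATA factors bind DNA through zinc fingers, and in the heart Gata4, Gata5 and Gata6 act with partly overlapping roles. Nkx2-5 is a homeodomain protein of the myocardium that binds beside GATA4 and the T-box factor TBX5 at many cardiac promoters. Hand1 and Hand2 are basic helix-loop-helix proteins that pair with E proteins and bind E-boxes. Hand1 is known for the outer curvature of the left ventricle, and Hand2 for the right ventricle, the outflow tract, the endocardium and the neural crest of the pharyngeal arches. Isl1, a LIM-homeodomain protein, marks progenitors of the second heart field, which feed cells into both poles of the tube and lower Isl1 as they become muscle.

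Of these 7 transcripts, Hand2 was the one that passed the test, and it was lower in the Sox7-null tubes. Hand1, its paralogue, was at nearly the same level in both genotypes. Gata4 and Nkx2-5 were higher in both null libraries than in the wild type and Gata5 and Gata6 were lower in both, but none of these 4 passed. Isl1 had few reads and did not pass. The count of 1 lower and 0 higher among 7 stands against a background in which 21.6% of the 13334 genes tested passed, 11.3% higher and 10.2% lower. With 7 genes, 1 call is too few to set above or below these shares. The wild-type level lay outside the range of the null libraries for 6 of the 7, as it did for 86.1% of all genes tested.

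Reads assigned to genes numbered 13139823 and 13618338 in Sox7-null replicates 1 and 2 and 13789388 in the wild type. Sox7 had 2 and 7 reads in the null libraries against 222 in the wild type. The wild-type library also had more reads that aligned to several places (10.4% and 11.6% of the reads listed in the null libraries, against 22.3%). The extraction text names retinal organoids, while the tissue label names the heart tube. Retinal markers summed to 76.7 and 55.8 CPM (gene reads scaled to a common library size, with TMM factors) in the null libraries against 43.1 CPM in the wild type, nearly all of it from Mitf (992 and 751 reads against 538), which is also made outside the retina. Pax6 and Otx2 had at most 24 reads in a library, Rax and Rlbp1 at most 3, and Six3, Six6, Crx and Rcvrn had 0. All 12 cardiomyocyte markers were present, at a summed 33000 and 33000 CPM in the null libraries and 28000 CPM in the wild type. Because these are bulk samples, fewer cells of a type and less RNA per cell cannot be told apart for any gene described here. Nothing in the labels says that the 2 null libraries are separate embryos, so p-values measure only the spread between these libraries, which may be technical.

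**Figure D1:**
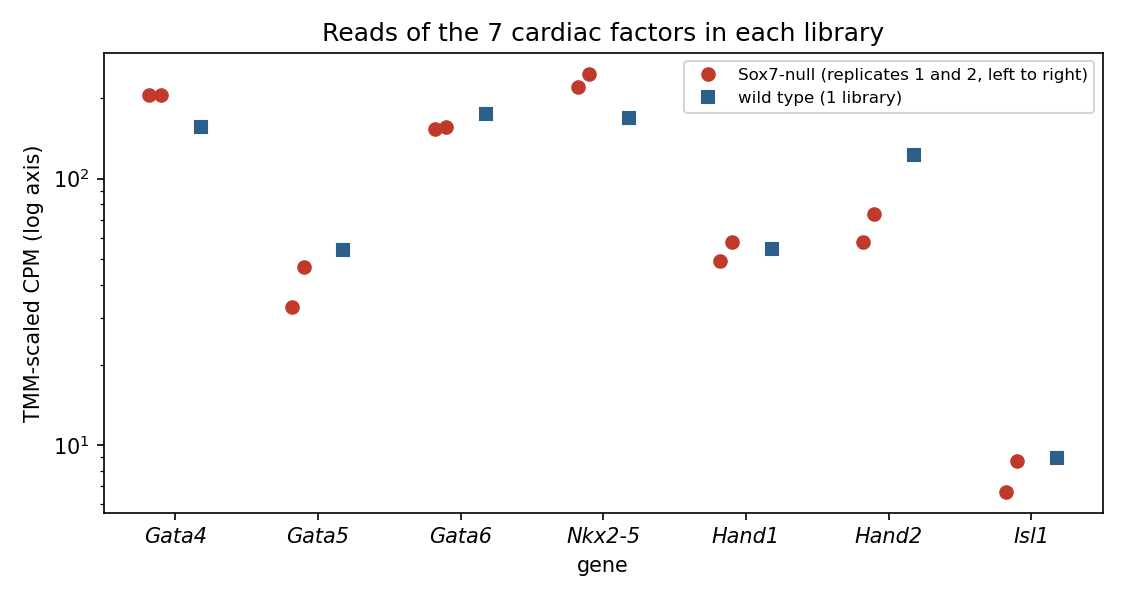
TMM-scaled CPM (vertical log axis) of the 7 factors in each library, with red circles for Sox7-null replicates 1 and 2 and a blue square for the 1 wild-type library. Hand2 sits at 57.6 and 73.4 CPM in the null libraries against 123 CPM in the wild type, while the 3 points of Hand1 lie between 49.2 and 58.0 CPM.

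Hand2 had 777 and 1012 reads in the Sox7-null libraries against 1631 reads in the wild type. Scaled for library size this was 57.6 and 73.4 CPM, or 65.5 ± 11.2 CPM (SD, n = 2), against 123 CPM (n = 1). Both null libraries lay below the wild type, and the groups did not overlap. The log2 fold change was -0.91 ± 0.20 (SE; 95% interval -1.34 to -0.47; adjusted p = 0.00779 by edgeR's quasi-likelihood test), a level 0.533 times that of the wild type with an interval of 0.394 to 0.720. Each null library taken alone gave a log2 ratio to the wild type of -1.09 for replicate 1 and -0.74 for replicate 2. The call held in 6 of 7 other fits, over which the adjusted p ran from 0.00114 to 0.128. It was lost without a filter on low counts (log2 fold change -0.89, adjusted p = 0.128 by edgeR), a setting under which edgeR called 0 genes in all, against 2147 higher and 1966 lower at an unadjusted p under 0.05. The transcript Hand2os1 overlaps Hand2 on the opposite strand in the GENCODE annotation and starts beside it, but no counted symbol matched it. Whether the counting used strand is not given in the sources used here.

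Hand1 had 663 and 799 reads in the null libraries against 722 reads in the wild type. Its levels were 49.2 and 58.0 CPM against 54.4 CPM, so the wild type fell between the null libraries. The log2 fold change was -0.02 ± 0.21 (SE; adjusted p = 0.950 by edgeR), and its 95% interval of -0.47 to 0.42 still admits changes of that size in either direction. The 2 Hand genes can be set against each other within a library, where scaling between libraries plays no part. Hand2 supplied 54.0% of the Hand1 and Hand2 reads in Sox7-null replicate 1 (95% exact binomial interval 51.3% to 56.6%) and 55.9% in replicate 2 (53.6% to 58.2%), against 69.3% in the wild type (67.4% to 71.2%). There were thus 1.17 and 1.27 Hand2 reads for each Hand1 read in the null libraries, against 2.26 in the wild type. The intervals are computed within a library and allow for counting error alone. Reads with no molecular identifier can be copies of 1 molecule, which would make the intervals too narrow. With 1 wild-type library the shift between genotypes was not tested. Divided by exon length, the Hand2 share was 49.9% and 51.8% in the null libraries against 65.7% in the wild type.

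**Figure D2:**
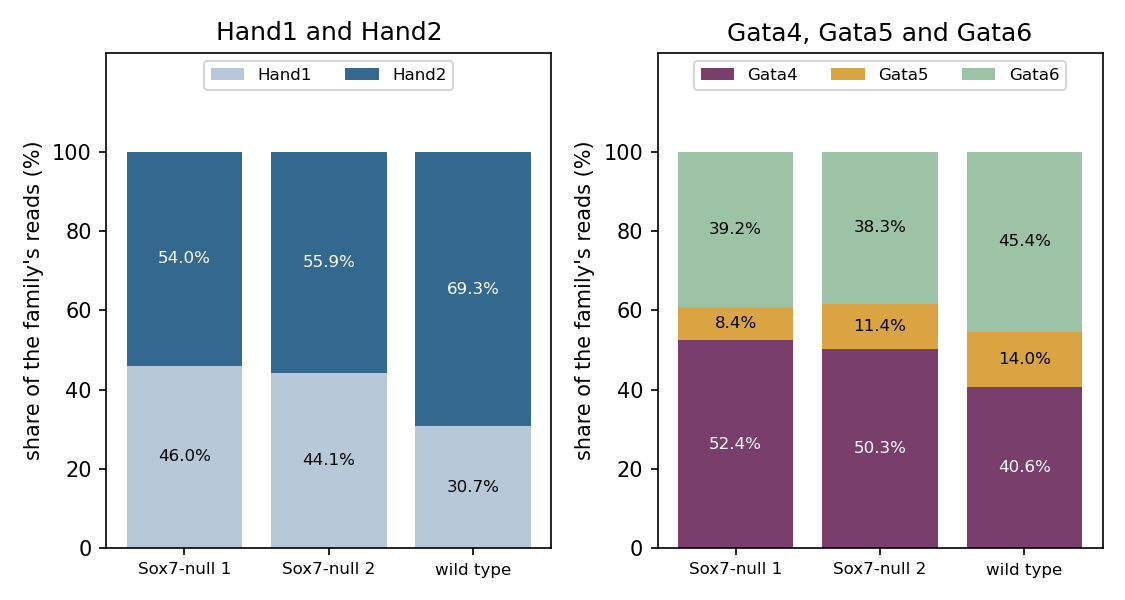
Stacked bars of the share of reads (percent, vertical axis) that each gene took among Hand1 and Hand2 (left) and among Gata4, Gata5 and Gata6 (right), for Sox7-null replicates 1 and 2 and the wild type. Hand2 takes 54.0% and 55.9% of its pair in the null libraries against 69.3% in the wild type, and Gata4 takes 52.4% and 50.3% of its trio against 40.6%.

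The promoter windows of Hand2 and of Nkx2-5 are shown because Hand2 passed the test and Nkx2-5 had the highest level of the 7 and lay on the other side of the wild type. They are the 250 bases before the annotated start, 5′ to 3′ on the gene's strand, from RefSeq on GRCm38.p6 (Hand2 chr8:57320733-57320982, plus strand; Nkx2-5 chr17:26841566-26841815, minus strand). Capitals mark every match on either strand to 4 motifs, AGATAA for GATA factors, AAGTG for NKX2-5, CANNTG for the E-box that HAND and other basic helix-loop-helix proteins bind, and ACAAT for SOX factors.
Hand2: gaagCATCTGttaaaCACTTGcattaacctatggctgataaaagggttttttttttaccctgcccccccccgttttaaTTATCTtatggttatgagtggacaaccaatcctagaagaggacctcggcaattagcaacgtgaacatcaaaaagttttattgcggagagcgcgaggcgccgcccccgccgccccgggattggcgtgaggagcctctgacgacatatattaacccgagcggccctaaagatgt
Nkx2-5: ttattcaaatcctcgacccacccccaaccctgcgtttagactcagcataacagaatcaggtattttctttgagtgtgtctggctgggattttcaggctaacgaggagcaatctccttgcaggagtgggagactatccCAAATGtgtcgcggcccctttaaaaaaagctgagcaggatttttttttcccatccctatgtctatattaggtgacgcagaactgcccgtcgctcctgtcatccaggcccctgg
The Hand2 window held 2 E-boxes, and 1 GATA match and 1 NKX2-5 match that are both on the opposite strand. The NKX2-5 match lies within the second E-box. The Nkx2-5 window held 1 E-box and no match to the other 3 motifs. Among the 32851 windows of this length in the table, 66.2% held the E-box letters, 40.7% the NKX2-5 letters, 27.7% the SOX letters and 9.99% the GATA letters. Of the 7 genes, 4 were matched in the table, and the Gata5 and Isl1 windows held 1 E-box each and no other match. These matches describe letters in a window and not binding.

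Per exon length Gata4 was the highest of the GATA genes, and by reads it was above Gata6 in the null libraries and below it in the wild type. It had 2778 and 2819 reads in the null libraries against 2075 in the wild type, or 206 and 205 CPM against 156 CPM. The null libraries were almost equal to each other and both higher than the wild type, but the log2 fold change of 0.39 ± 0.18 (SE; 95% interval 0.01 to 0.77) did not pass over all genes (adjusted p = 0.130 by edgeR). Gata6 had 2078 and 2144 reads in the null libraries against 2322 in the wild type, or 154 and 156 CPM against 175 CPM. Its log2 fold change was -0.18 ± 0.17 (SE; 95% interval -0.56 to 0.20; adjusted p = 0.505 by edgeR). Gata5, which in the early heart is known mainly from endocardium and its precursors, had 443 and 640 reads in the null libraries against 717 in the wild type. This was 32.9 and 46.4 CPM against 54.1 CPM, with both null libraries lower and with the wider gap between the null libraries themselves (log2 fold change -0.45 ± 0.23; 95% interval -0.95 to 0.05; adjusted p = 0.187 by edgeR).

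These 3 values depended on a correction for transcript length and GC content, in which the trend of each library's deviations on both was subtracted. After it, Gata6 (-0.60, adjusted p = 0.0296 by edgeR) and Gata5 (-0.65, adjusted p = 0.0465 by edgeR) passed as lower, and Gata4 moved to 0.09 (adjusted p = 0.773 by edgeR). Gata6 has the longest exon sequence of the 7, at 6508 bases, against 3904 for Gata4 and 3277 for Gata5. Their GC contents were 55.3%, 57.4% and 56.9%. Length and GC were corrected together, so the part of either was not tested. Shares of reads within a library need no scaling between libraries, though they carry no such correction. Gata4 took 52.4% and 50.3% of their reads in Sox7-null replicates 1 and 2 against 40.6% in the wild type, where the exact 95% intervals were 51.1% to 53.8% and 49.0% to 51.6% against 39.2% to 41.9%. Gata6 took 39.2% and 38.3% in the null libraries against 45.4% in the wild type, and Gata5 took 8.36% and 11.4% against 14.0%. There were 1.34 and 1.31 Gata4 reads for each Gata6 read in the null libraries against 0.894 in the wild type. By reads per exon length Gata4 was the highest of the 3 in every library, with 61.0% and 57.9% in the null libraries against 48.0% in the wild type. The antisense transcript Gata5os, listed under its older symbol Gm14318, overlaps Gata5 and had 7 and 13 reads in the null libraries against 10 in the wild type. The transcript 1010001N08Rik overlaps Gata6 on the opposite strand, and no counted symbol matched it.

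Gata4 lies on chromosome 14 with Sox7, and 6 protein-coding genes stand between them in the GENCODE annotation of GRCm38. Of these, Pinx1, which encodes a telomerase inhibitor, was lower, with 55 and 90 reads in the null libraries against 181 in the wild type (log2 fold change -1.36 ± 0.33; adjusted p = 0.0127 by edgeR; DESeq2 adjusted p = 0.0816). Mtmr9 did not pass (299 and 321 reads against 255), nor did Blk, Fam167a and Xkr6, which had at most 33 reads in a library, and Tdh had too few reads to be tested. By start along the chromosome the 6 genes run Blk, Fam167a, Tdh, Mtmr9, Xkr6 and Pinx1. The sources do not settle which build was counted on, so no positions or distances are given.

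Nkx2-5 had 2985 and 3405 reads in the null libraries against 2236 in the wild type. Its levels were 221 and 247 CPM, or 234 ± 18.1 CPM (SD, n = 2), against 169 CPM (n = 1), and the groups did not overlap. The log2 fold change was 0.47 ± 0.18 (SE; 95% interval 0.09 to 0.86), which did not pass over all genes (adjusted p = 0.0758 by edgeR). It did not pass in any of the 7 other fits either, where the value lay between 0.28 and 0.49 and the adjusted p between 0.0635 and 0.319. Relative to Gata4, its partner on DNA, Nkx2-5 had 1.07 and 1.21 reads per Gata4 read in the null libraries against 1.08 in the wild type, so the ratio of the pair in the wild type lay between those of the null libraries.

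Isl1 had 90 and 120 reads in the null libraries against 118 in the wild type, or 6.68 and 8.71 CPM against 8.90 CPM. Its log2 fold change of -0.21 ± 0.32 (SE; adjusted p = 0.681 by edgeR) had a 95% interval of -0.90 to 0.48 that reaches nearly to the value of Hand2, so at this depth smaller falls were not detectable. For each Nkx2-5 read there were 0.0302 and 0.0352 Isl1 reads in the null libraries against 0.0528 in the wild type.

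**Figure D3:**
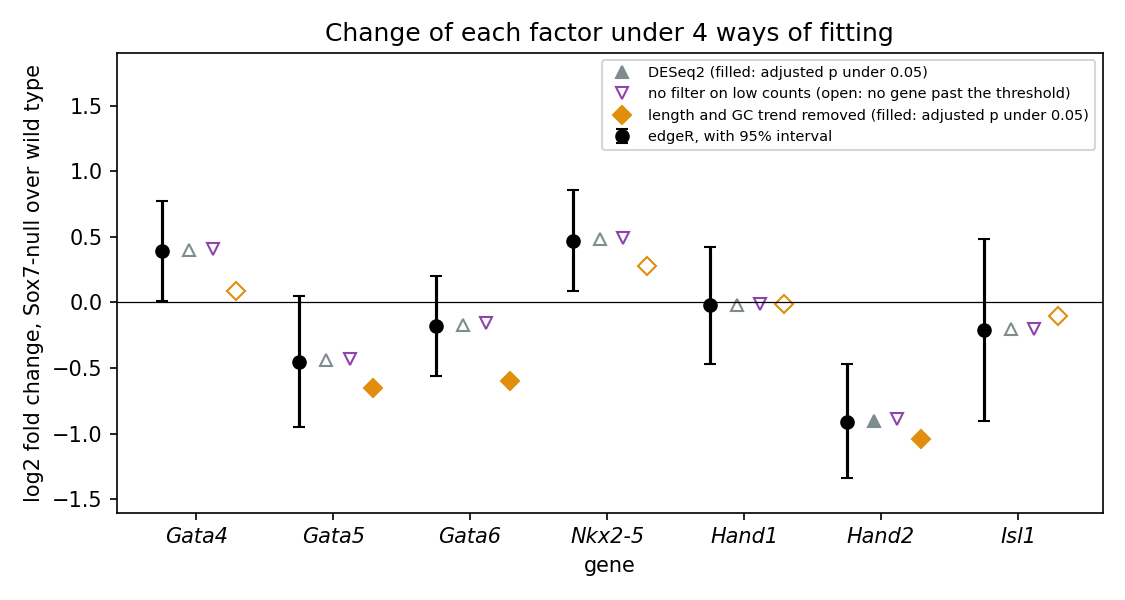
Log2 fold change of each factor, Sox7-null over wild type (vertical axis), from edgeR with its 95% interval (black), DESeq2 (triangles), edgeR with no filter on low counts (inverted triangles) and edgeR corrected for length and GC (diamonds). Among the coloured markers, filled ones are past an adjusted p of 0.05. Hand2 lies between -0.89 and -1.04 in these fits, and Gata5 (-0.65) and Gata6 (-0.60) pass once corrected.

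Levels can be compared between genes only per length, as RPKM (here CPM divided by the GENCODE exon length in kilobases). On this scale Nkx2-5 was highest in every library, at 129 and 144 RPKM in the null libraries against 98.1 RPKM in the wild type. Gata4 came second in both null libraries, at 52.8 and 52.4 RPKM, whereas in the wild type Hand2 was second at 52.3 RPKM and Gata4 came next at 40.1 RPKM. In the null libraries Hand2 (24.5 and 31.2 RPKM), Hand1 (24.6 and 29.0 RPKM) and Gata6 (23.7 and 23.9 RPKM) followed, and Hand2 and Hand1 changed places between the 2 libraries. The difference between Hand2 and Hand1 within the null libraries was not tested. In the wild type Hand1 (27.3 RPKM) and Gata6 (26.9 RPKM) were close together. Gata5 (10.03 and 14.2 RPKM against 16.5 RPKM) and Isl1 (1.69 and 2.20 RPKM against 2.25 RPKM) came last in all 3 libraries.

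Family relatives of the 7 factors had at most 428 reads each in a library. Of 21 listed, 11 were tested, of which 0 were higher and 2 lower, where 11.3% of all genes tested were higher and 10.2% lower. A list this small cannot be set above or below those shares, and DESeq2 called 0 of these relatives. The median log2 fold change was -0.81 beside 0.01 over all genes tested. Several of the 11 had few reads, and the median was -0.67 over the 6 with a mean of at least 5 CPM. Gata2 and Gata3, the relatives that act in blood and endothelial precursors and in ectodermal tissues, had 53 and 109 reads and 63 and 109 reads in the null libraries against 156 and 166 reads in the wild type. Neither passed (log2 fold changes -0.99 ± 0.38 and -0.99 ± 0.34; adjusted p = 0.0794 and 0.0552 by edgeR), but both did after correction for length and GC (-1.43 and -1.01; adjusted p = 0.00844 and 0.0353 by edgeR). Gata1, the erythroid and megakaryocyte factor, had 65 and 134 reads against 88 without passing (adjusted p = 0.851 by edgeR). The relatives that fell were the LIM-homeodomain gene Lhx2, with 5 and 2 reads against 58 (log2 fold change -4.04 ± 0.67; adjusted p = 0.00170 by edgeR; left without an adjusted p by DESeq2's filter), and Twist1, a basic helix-loop-helix gene of mesenchyme that can pair with HAND proteins, with 201 and 261 reads against 428. Twist1 had a log2 fold change of -0.93 ± 0.23 (adjusted p = 0.0133 by edgeR) and did not pass with DESeq2 (adjusted p = 0.0693). Tcf21, another relative of the HAND genes, did not pass (221 and 167 reads against 254; adjusted p = 0.265 by edgeR). Isl2 had 6 and 3 reads in the null libraries against 3 in the wild type, and Nkx2-6 had 9 and 19 against 24.

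Cofactors and partners of the 7 proteins gave 4 of 20 higher and 0 lower, with a median of 0.01, where 11.3% of all genes tested were higher and 10.2% lower. With lists this small, this count and those of the next lists are given as descriptions beside that background. The counts were 2 and 3 after correction for length and GC, with a median of -0.22, and 2 and 0 with DESeq2. Myocd, the coactivator of SRF in muscle, had 1082 and 976 reads in the null libraries against 421 in the wild type, and rose by a log2 fold change of 1.25 ± 0.21 (adjusted p = 0.00211 by edgeR). The MADS-box gene Mef2a rose by 0.86 ± 0.22 (518 and 484 reads against 268; adjusted p = 0.0163 by edgeR). Zfpm1, which encodes the GATA cofactor FOG1, rose by 0.72 ± 0.21 (757 and 798 reads against 458; adjusted p = 0.0261 by edgeR), and the T-box gene Tbx20 by 0.53 ± 0.16 (5370 and 5519 reads against 3657; adjusted p = 0.0343 by edgeR). Zfpm1 and Tbx20 did not pass with DESeq2 (adjusted p = 0.0576 and 0.0573) or in edgeR corrected for length and GC (adjusted p = 0.575 and 0.136). Zfpm2, the FOG protein gene of the early heart, had 390 and 292 reads against 330 without passing, and Tbx5 (1036 and 1139 reads against 712; adjusted p = 0.0588 by edgeR) did not either. Ep300 was likewise higher in both null libraries without passing (log2 fold change 0.54; adjusted p = 0.0788 by edgeR). Tbx3, Smarcd3 and Hopx were lower in both (-0.6, -0.6 and -0.43) and did not pass (adjusted p = 0.0804, 0.0616 and 0.0881 by edgeR). The E protein genes Tcf3, Tcf4 and Tcf12, whose products pair with HAND1 and HAND2, had log2 fold changes of -0.08, -0.07 and -0.12 and did not pass.

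Muscle genes listed here as targets of GATA4, NKX2-5 and their partners were more often higher than lower. Of 24 tested, 13 were higher and 2 lower, with a median of 0.47. After correction for length and GC, and likewise with DESeq2, the counts were 10 and 1, and the corrected median was 0.27. These genes share 7 members with the 12 cardiomyocyte markers, of which 6 rose and 1 fell, or 3 and 0 once corrected. Bmp10 is counted both here and among the upstream signals given below. Nppa, the atrial natriuretic peptide gene, had 29524 and 16516 reads in the null libraries against 2585 in the wild type. Ankrd1, a sarcomere-associated repressor, had 18439 and 18161 reads against 7515 and rose by a log2 fold change of 1.24 ± 0.15 (adjusted p = 0.000335 by edgeR). Slc8a1, the sodium-calcium exchanger gene, had 22863 and 20014 reads against 11366 (log2 fold change 0.88 ± 0.15; adjusted p = 0.00231 by edgeR). Members that did not pass included Popdc2 (5786 and 5962 reads against 5485; adjusted p = 0.828 by edgeR) and Smyd1 (5386 and 6617 reads against 6267; adjusted p = 0.702 by edgeR). The members that fell were the light chain gene Myl2 (57876 and 52659 reads against 80119) and the inhibitory troponin gene Tnni3 (6330 and 6457 reads against 8829). Corrected for length and GC, neither passed (adjusted p = 0.159 and 0.0629 by edgeR).

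**Figure D4:**
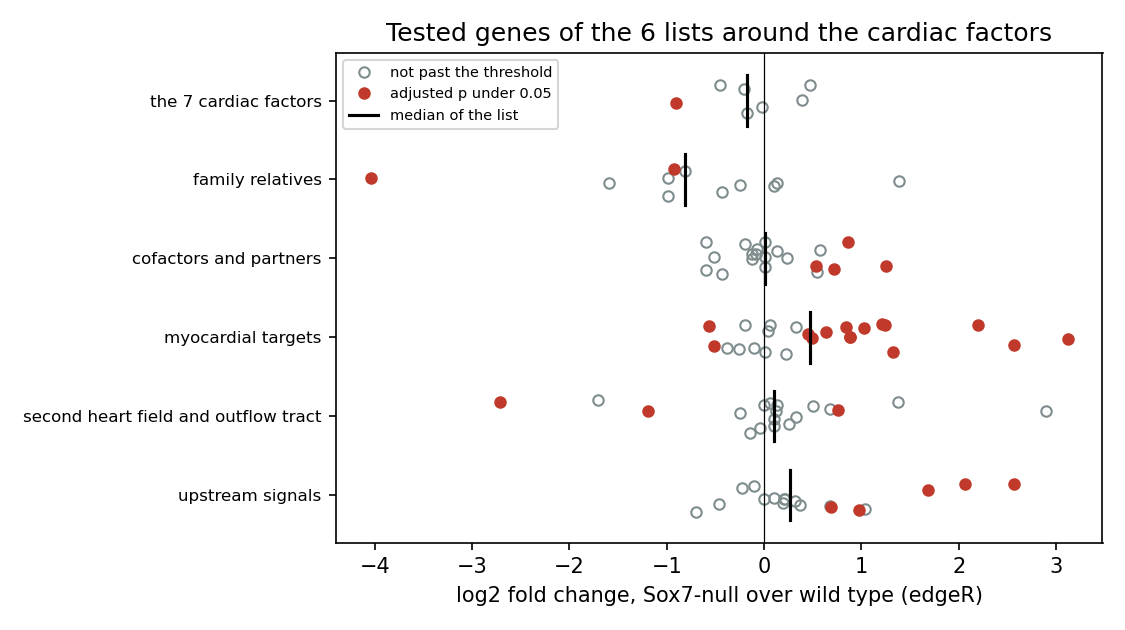
Log2 fold change, Sox7-null over wild type (horizontal axis), of every tested gene in 6 lists, with filled red points past an adjusted p of 0.05 in edgeR, open grey points not past it and a black bar at each list's median. The 24 myocardial targets have their median at 0.47 and the 20 cofactors and partners at 0.01, or at 0.27 and -0.22 after correction for length and GC.

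The second heart field and outflow tract genes, which share a territory with Isl1 and Hand2, gave 1 of 19 higher and 2 lower, with a median of 0.10, and 1 and 0 with DESeq2. Foxc1, a forkhead gene of mesenchyme, had 76 and 63 reads against 155 (log2 fold change -1.19 ± 0.32; adjusted p = 0.0185 by edgeR), though DESeq2 did not call it (adjusted p = 0.146). Hoxb1 also fell, with 2 and 5 reads against 23 (adjusted p = 0.0366 by edgeR). Plxnd1, a semaphorin receptor gene of endothelium, was the member that rose (1086 and 998 reads against 597; log2 fold change 0.76 ± 0.21; adjusted p = 0.0197 by edgeR), and it stood at 0.12 after correction for length and GC (adjusted p = 0.745 by edgeR). Fgf10, a growth factor gene of these progenitors that ISL1 is known to activate, had 121 and 155 reads against 134 without passing (adjusted p = 0.998 by edgeR). Mef2c, another known ISL1 and GATA target, had 2428 and 2696 reads against 2273 (adjusted p = 0.634 by edgeR).

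Among signals that act upstream of these factors, 5 of 18 were higher and 0 lower, with a median of 0.27, and 13 did not pass. Those 13 included Bmp2, Bmp4, Bmp5 and Wnt2, with log2 fold changes of -0.46, -0.10, 0.37 and -0.70 (adjusted p = 0.134, 0.772, 0.226 and 0.110 by edgeR). The BMP ligand genes Bmp10, Bmp6 and Bmp7 and the receptor gene Bmpr1a rose, Bmp7 by a log2 fold change of 0.98 ± 0.21 (1816 and 1478 reads against 812; adjusted p = 0.00683 by edgeR) and Bmpr1a by 0.69 ± 0.18 (5326 and 4375 reads against 2938; adjusted p = 0.0199 by edgeR). Edn1, the endothelin ligand that acts ahead of Hand2 in the pharyngeal arches, rose by 1.68 ± 0.27, with 397 and 323 reads against 109 (adjusted p = 0.00141 by edgeR). Its receptor gene Ednra did not pass (891 and 986 reads against 786; adjusted p = 0.473 by edgeR), and Dlx5 and Dlx6, which stand between the receptor and Hand2 in the arches, had at most 4 reads in any library.

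Several of the 7 factors are also made outside the myocardium, so markers of other tissues are given beside them. Foregut endoderm and liver markers, a territory that also makes Gata4 and Gata6, fell in 10 of 13 tested, with a median of -3.24. DESeq2 called 4 lower with a median of -3.25, counting Alb, which its filter left without an adjusted p, as not called. At a minimum mean of 5 CPM 1 of 2 tested was lower. They summed to 15.9 and 19.4 CPM in the null libraries against 77.8 CPM in the wild type. Of the neural crest and pharyngeal arch markers, which cover tissue that makes Hand2, 1 of 6 tested was higher (Alx1, log2 fold change 1.52 ± 0.34) and 1 lower (Barx1, -2.50 ± 0.65). The counts were 1 and 3 after correction for length and GC and 1 and 0 with DESeq2, whose filter left Barx1 without an adjusted p. Summed levels were 121 and 139 CPM in the null libraries against 140 CPM in the wild type. Most of each sum came from Ednra and Prrx2, which went opposite ways without passing. Ednra was higher in both null libraries (66.1 and 71.5 CPM against 59.3 CPM), and Prrx2 was lower in both (37.2 and 47.8 CPM against 60.3 CPM). The crest markers Foxd3, Tfap2b and Sox10 had 0, 1 and 1 reads at most in a null library and 0, 0 and 11 in the wild type. Endothelial and endocardial markers gave 3 higher and 2 lower of 12 (1 and 1 with DESeq2), at a summed 613 and 588 CPM against 581 CPM. Corrected for length and GC, the counts of these endothelial markers were 1 and 2, and their median was -0.1, against 0.07 without it. Proepicardial and septum transversum markers gave 1 higher (Wt1, 0.97 ± 0.24) and 1 lower (Lhx2) of 11 (1 and 0 with DESeq2). After correction for length and GC the counts were 2 and 1, and Wt1 stood at 0.62 and did not pass (adjusted p = 0.0555 by edgeR). Their sum was 345 and 199 CPM against 224 CPM. Markers of neurons, which also make Isl1, gave 0 higher and 1 lower (Elavl4, -1.04 ± 0.31, though not with DESeq2) of 7, at 40.5 and 24.4 CPM against 34.8 CPM, and Neurog1, Neurog2 and Neurod1 had 0 reads in every library. Erythroid markers, which accompany Gata1, passed in 0 of 9 by edgeR or DESeq2 (1 at an unadjusted p under 0.05 in edgeR) and summed to 4550 and 14500 CPM in the null libraries against 14000 CPM in the wild type. The part of these tissues in the levels of the 7 factors was not tested.

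The genes nearest to each factor were found by the largest difference over the 3 libraries in log2 CPM centred on its mean, among 9716 genes with a mean of at least 5 CPM. Dbi and Fam54a were nearest to Hand2, within 0.0035 and 0.0051, Rlim and Lrrc1 to Gata4, Atg4a and Slc20a1 to Gata5, and Rab14 and Rbm18 to Gata6. Atg4c and Pde5a were nearest to Nkx2-5, Ammecr1l and Nolc1 to Hand1, and R3hcc1 and Cd24a to Isl1. With 3 libraries this singles out little, since 283 genes lay within 0.1 of Hand2 and 1117 within 0.1 of Gata6. No other of the 7 factors was among the nearest pair of any of them. With 9716 genes compared, this cannot show whether the factors vary together.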

How the data were processed

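Each deposited file holds the raw read count of 1 library for 23337 gene symbols, as the values show, and 5 summary lines, which were left out. RNA was extracted with Trizol and made into stranded total RNA libraries, per the labels' protocols. CASAVA, TopHat2, HTSeq and DESeq2 1.10.1 are named with the human builds hg19 and GRCh37, per the submitters' processing notes, although the symbols are those of mouse. No source used here gives the annotation or the strand setting.

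Libraries were grouped by the genotype label. The counts were tested with edgeR 4.0.16 (TMM factors 1.03, 1.01 and 0.962; filterByExpr with a minimum count of 10, keeping 13334 genes; glmQLFit and glmQLFTest) in R 4.3.3, with Benjamini-Hochberg adjustment over all genes tested and a threshold of 0.05, after the code was tested on simulated data. The design leaves 1 residual degree of freedom. The fit adds 11.8 from all genes (prior) and takes the single wild-type library to be as variable as the null libraries. The standard error is the log2 fold change divided by the square root of F. Alternatives were RLE and upper-quartile factors, DESeq2 1.42.0, limma-voom (limma 3.58.1), other filters, a correction of each library for a loess trend on GENCODE M21 length and GC, and leaving out either null library. CPM are TMM-scaled, and exon-union lengths came from GENCODE M21. Of 214 list entries, 213 matched a symbol.

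The 7 factors and the lists were chosen with earlier results of these data known. Besides the 7, genes were chosen as up to 4 per list by smallest p among those past the threshold, up to 2 more by mean CPM where fewer passed, the nearest relatives, neighbours in the annotation and the 2 genes nearest in pattern. Not all genes chosen so are described. Those left out include Myh7, Actn2, Tnnt2, Ryr2, Pln, Pecam1, Tek, Flt1, Tie1, Afp and Ttr. Further genes were named after their values were seen, namely Slc8a1, Popdc2, Smyd1, Myl2, Tnni3, Tbx5, Tbx3, Ep300, Smarcd3, Hopx, Zfpm2, the E protein genes, Fgf10, Bmp2, Bmp4, Bmp5, Bmpr1a, Wnt2, Dlx5, Dlx6, Nkx2-6 and markers with hardly any reads.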

Additional observations from a re-analysis of the deposited data

How the results depend on the processing

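Over all genes 1508 were higher and 1366 lower. DESeq2 called 968 and 671, and edgeR without a filter on low counts called 0 and 0 (2147 and 1966 at an unadjusted p under 0.05). Hand2 lost its call in that last setting (-0.89, edgeR adjusted p = 0.128), for which the cause was not tested. Gata5 (-0.65) and Gata6 (-0.60) gained a call after correction for length and GC, and the other fits changed no call among the 7 factors. That correction gave 48.1% of calls as higher, against 52.5% without it, and a median of -0.047 over all genes. DESeq2 called 4 foregut markers and 0 family relatives lower, where edgeR called 10 and 2. Genes that DESeq2's filter left without an adjusted p, among them Alb, Lhx2, Barx1 and Hoxb1, count as not called in all DESeq2 counts of the lists. Leaving out either null library left a single pair of libraries, hence values without a test. Without replicate 1 and without replicate 2 the log2 ratios were -0.74 and -1.09 for Hand2, 0.09 and -0.15 for Hand1, 0.39 and 0.40 for Gata4, -0.22 and -0.72 for Gata5, -0.17 and -0.18 for Gata6, 0.55 and 0.39 for Nkx2-5 and -0.03 and -0.41 for Isl1. Of 14 list medians, 10 moved by at least 0.1 under the same correction, and 9 and 6 without replicate 1 and without replicate 2. With a prior count of 2 the nearest pair held for 6 of the factors and changed in 1 place for Isl1. No paired analysis was possible because the groups share no replicate pairing, with 1 wild-type library. Among the 7 factors Isl1 had the fewest reads, 90 to 120 in a library.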
